A study of Mus musculus with 6 samples.

Results

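Transcripts of the epidermal growth factor (EGF) family and of its ErbB receptors were read in myospheres, floating clusters of cells cultured from mouse muscle. The members are 4 receptor genes (Egfr, Erbb2, Erbb3, Erbb4) and 6 ligand genes (Egf, Tgfa, Hbegf, Areg, Ereg, Btc), taken by gene name. Of these 10 genes, 9 had a probe set annotated to them and to no other gene, out of 18194 genes measured in all. They were read by 20 of 35067 such probe sets, 18 on the Affymetrix chip MOE430A and 2, both for Egfr, on its companion MOE430B. Areg was not analysed here, since no probe set was annotated to it in the table used.

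The series holds 1 condition. The labels describe male Balb/c mice, cells of hind-leg muscle enriched by flow sorting with the Sca1 antigen, 4 days of culture in a neural stem cell medium and RNA taken at passage 1. The medium was supplemented with EGF, LIF, B27 and an additive spelled bf6f, so every sample had EGF added and no sample without EGF exists for comparison. RNA came from 2000000 cells, in a volume of 5 µL. Replicates 1 to 3 were each read on both chips, which makes 6 arrays. The labels do not say whether the replicates were separate cultures, so p-values measure only the spread between these arrays, which may be technical.

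The ErbB receptors are tyrosine kinases of the cell surface that pair when a ligand binds and then phosphorylate each other's tails. Egfr binds EGF, transforming growth factor alpha (Tgfa), amphiregulin (Areg), heparin-binding EGF-like growth factor (Hbegf), epiregulin (Ereg) and betacellulin (Btc). Erbb3 and Erbb4 bind the neuregulins, and Erbb4 also binds Hbegf, Ereg and Btc. Erbb2 has no known ligand of its own and serves as the preferred partner of the others, while Erbb3 has little kinase activity and signals through its partner. Most ligands are made as membrane proteins and are released by ADAM proteases. In the RefSeq gene table (assembly GRCm38.p6), Epgn, Ereg, Areg and Btc are consecutive protein-coding genes on chromosome 5.

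RefSeq promoter windows of GRCm38.p6, from 250 bases before to 50 bases after the gene start, were held for 7 of the 10 members, in 8 windows. The 3 windows printed are those of the members that gave signal above background (below) and had an entry, 5′ to 3′ on the gene's strand. Capitals mark the GC box, GGGCGG on either strand. They lie at chr11:16751953-16752252 (plus strand) for Egfr, chr6:86194972-86195271 (plus strand) for Tgfa and chr5:91402945-91403244 (minus strand) for Btc.
Egfr: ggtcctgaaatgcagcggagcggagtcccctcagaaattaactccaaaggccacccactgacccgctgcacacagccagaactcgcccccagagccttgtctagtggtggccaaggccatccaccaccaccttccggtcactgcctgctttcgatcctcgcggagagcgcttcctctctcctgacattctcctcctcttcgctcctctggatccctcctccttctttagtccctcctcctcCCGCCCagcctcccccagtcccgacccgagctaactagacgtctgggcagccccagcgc
Tgfa: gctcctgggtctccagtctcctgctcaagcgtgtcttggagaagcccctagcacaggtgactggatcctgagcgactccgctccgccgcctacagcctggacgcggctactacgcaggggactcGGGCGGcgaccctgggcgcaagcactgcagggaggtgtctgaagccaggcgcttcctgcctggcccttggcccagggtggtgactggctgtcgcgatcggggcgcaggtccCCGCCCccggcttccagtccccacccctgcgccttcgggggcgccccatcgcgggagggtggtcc
Btc: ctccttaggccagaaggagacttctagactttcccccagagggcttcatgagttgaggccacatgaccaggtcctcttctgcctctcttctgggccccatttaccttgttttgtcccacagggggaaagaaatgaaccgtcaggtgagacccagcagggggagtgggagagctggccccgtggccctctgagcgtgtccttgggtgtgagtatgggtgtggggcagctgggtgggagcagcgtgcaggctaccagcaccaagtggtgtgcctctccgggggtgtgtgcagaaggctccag

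Egfr held 1 GC box, Tgfa 2 and Btc 0, against 35.7% of all 32851 windows with at least 1. The window was 62.3% G and C for Egfr, 70.7% for Tgfa and 60.3% for Btc, where the median over all windows was 52.7%. The TATA box letters TATAAA, searched on both strands, were in none of the 3 printed windows and in 13.6% of all windows. Nor did any of the 3 hold TGACTCA (the AP-1 site, 5.2% of all windows) or TGACGTCA (the CRE, 1.79%), each on both strands. Egfr held CCGGAA, the ETS core, on the minus strand, as did 14.9% of all windows on either strand. The searched motifs do not contain one another. A match describes letters only, and its absence says nothing of the factor.

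Values are MAS5 signals, a linear brightness per probe set that the authors' processing scaled to a like trimmed mean on every array, 1500 to 1501. Since the files were used without detection calls, a limit for background was taken, array by array, as the 95th percentile of probe sets for genes of other tissues, such as odorant receptors and crystallins. The mean limit was 807.8 on MOE430A, from 152 such probe sets, and 2903 on MOE430B, from 44. A probe set was called above its limit if its signal was higher on each of the 3 arrays of the chip, and a gene if any of its probe sets was. A second measure, the log2 ratio of signal to limit, was tested against 0 with limma, with p-values adjusted over all probe sets of the chip. It takes the limit as exact. Probe sets differ in affinity, so each is read against its limit and not against other probe sets.

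Of the 9 members measured, 5 were above the limit: the receptor Egfr and the ligands Ereg, Hbegf, Tgfa and Btc. The other 4, Erbb2, Erbb3, Erbb4 and Egf, were not. Over all genes 36.2% were above it, and 42.7% with MOE430A alone. The share was 22.1% where a single probe set read the gene, 42.3% where 2 did and 59.2% where 3 or more did, as for Egfr with its 7. Of the probe sets themselves, 6 of 18 on MOE430A and 1 of 2 on MOE430B were above it on every array, against 35.6% and 13.6% of all single-gene probe sets of those chips. The members' median log2 ratio to the limit, taking each gene's highest probe set, was 0.59, against -0.42 over all genes. This contrast was not matched for the number of probe sets or for the chip. The highest probe set of every member was on MOE430A, and the median over all genes took both chips. With so few members the counts are a description. With the 99th percentile as limit 3 of 9 members were above, as Tgfa and Btc lost their call, and 27.1% of all genes.

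Egfr, the receptor of EGF itself, was the one receptor above the limit. Its MOE430A probe set 1460420_a_at, whose probes may match several transcripts of the gene, read 3573, 4817 and 4130 in replicates 1, 2 and 3. All 3 arrays lay above their limits, by 4.36 to 6.15 times. The mean log2 ratio was 2.36 ± 0.11 (SE, n = 3; limma, adjusted p = 9.41e-07), where 32.9% of MOE430A probe sets were called higher than the limit and 47% lower.

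Probe set 1424932_at of Egfr read 2229, 2137 and 2230. These were nearly level, with a coefficient of variation of 2.43%, and each stood 2.72 to 2.73 times over its limit. The log2 ratio was 1.44 ± 0.10 (SE, n = 3; limma, adjusted p = 7.03e-06). On MOE430B, probe set 1435888_at read 19647, 10635 and 14608, which is 3.63 to 6.07 times the limits of that chip. Its log2 ratio was 2.33 ± 0.16 (SE, n = 3; limma, adjusted p = 5.79e-08), on a chip where limma called 11.9% of probe sets higher.

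The remaining 4 Egfr probe sets did not pass the limit on all arrays. Probe set 1432647_at read 703.5, 850.6 and 751.7, above the limit in replicate 2 alone. Probe sets 1451530_at, at 596 ± 10.3, and 1454313_at, at 549 ± 114 (SD, n = 3), were under it on every array. On MOE430B, 1457563_at read 1235, 728.5 and 785.8 and was lower than the limit by limma (log2 ratio -1.70 ± 0.46, SE, n = 3; adjusted p = 0.00542), as were 68.3% of the probe sets of that chip. So 3 of 7 probe sets carried the call for Egfr, on both chips. It held under all 11 alternatives, among them leaving out probe sets of shared sequence.

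**Figure D1:**
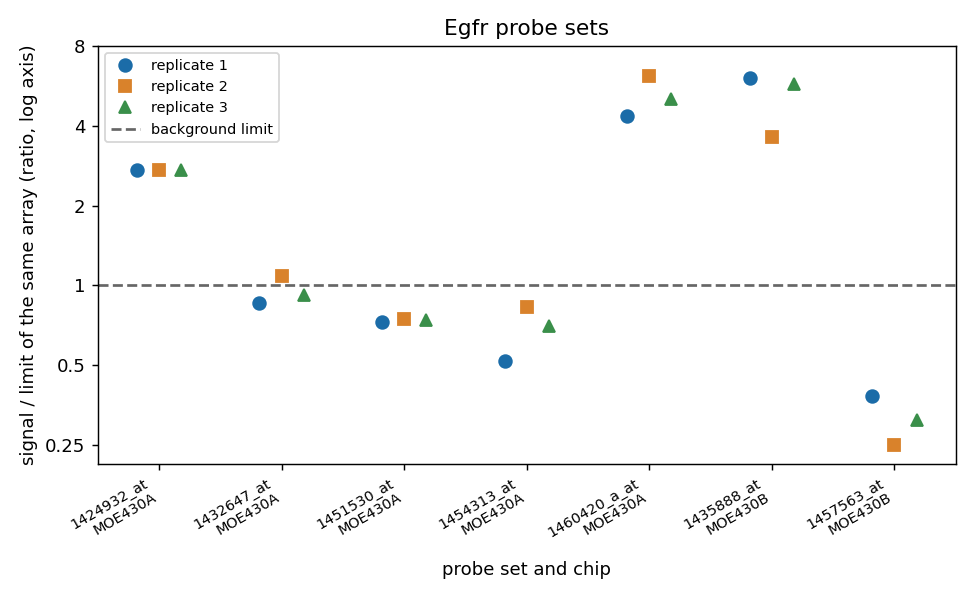
Signal over the background limit of the same array (ratio, log axis) for the 7 Egfr probe sets, 5 on MOE430A and 2 on MOE430B, with 1 point per replicate array. The points of 1424932_at, 1460420_a_at and 1435888_at lie wholly above the dashed limit, from 2.72 to 6.15 times it, and 1432647_at straddles it.

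Egfr was also the only member with probe sets on both chips, so its replicates could be compared. Replicate 1 was the highest and replicate 2 the lowest, by 0.35 ± 0.25 (SE) on the log2 scale, which did not pass (limma F-test with chip as covariate, adjusted p = 0.859; 6 of 622 genes passed, 0.965%). The order differed between the chips: replicate 1 gave the highest 1435888_at signal on MOE430B but the lowest 1460420_a_at signal on MOE430A. On MOE430B, replicate 1 came from another chip lot than replicates 2 and 3, per the experiment files. The part of the lot in that order was not tested.

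Erbb2, the shared partner receptor, was read by probe set 1424919_at, at 823.2, 407.4 and 588.0 in replicates 1 to 3. Replicate 1 lay at 1.01 times its limit and the others under theirs, and the log2 ratio of -0.47 ± 0.25 (SE, n = 3) did not pass (limma, adjusted p = 0.11). Erbb3, the neuregulin receptor with a weak kinase, gave 571.9, 552.8 and 869.5 by 1434606_at. Only replicate 3 exceeded its limit, at 1.06 times, and the log2 ratio of -0.31 ± 0.21 did not pass (limma, adjusted p = 0.203). Signals of these probe sets thus lay about the limit, which does not show that the transcripts were absent. The other Erbb3 probe set, 1452482_at, read 72.8, 288.2 and 241.4 and was lower than the limit (log2 ratio -2.23 ± 0.51, SE, n = 3; limma, adjusted p = 0.00548).

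Erbb4, the other neuregulin receptor, lay far under its limit. Its single probe set 1427783_at read 30.1, 31.7 and 35.5, all 3 at 0.0367 to 0.0432 of the limit. The log2 ratio was -4.64 ± 0.41 (SE, n = 3; limma, adjusted p = 3.47e-05).

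Among the ligands above the limit was Ereg. Epiregulin binds Egfr and Erbb4, and its probe set 1419431_at read 17171, 15719 and 22872, with replicate 3 the highest. Every array was at least 20.1 times over the limit and the highest 27.8 times. The log2 ratio was 4.51 ± 0.13 (SE, n = 3; limma, adjusted p = 5.99e-08). Ereg kept its call under all 11 alternatives. It rests on 1 probe set, the only one of the gene on either chip.

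Hbegf, which binds heparan sulphate as well as Egfr and Erbb4, gave 1349, 1804 and 2273 by 1418350_at. All 3 arrays were above the limit, by 1.65 to 2.77 times, again with replicate 3 highest. The log2 ratio was 1.13 ± 0.16 (SE, n = 3; limma, adjusted p = 0.000431). The second Hbegf probe set, 1418349_at, read 725.4, 692.4 and 863.1 and did not pass in either direction (log2 ratio -0.09 ± 0.17; limma, adjusted p = 0.625). Only its replicate 3 reading exceeded the limit, at 1.05 times.

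Tgfa, a close relative of EGF that binds Egfr, read 1612, 1074 and 1214 by 1450421_at. These were 1.37 to 1.97 times the limit, with replicate 1 highest and a log2 ratio of 0.67 ± 0.15 (SE, n = 3; limma, adjusted p = 0.00462). Its other probe sets were both under the limit on every array. Of these, 1421943_at read 618 ± 73.6 and 1421942_s_at 407 ± 164 (SD, n = 3), the second lower than the limit (log2 ratio -1.07 ± 0.32; limma, adjusted p = 0.0161). That call was lost without replicate 1 (limma, adjusted p = 0.0578) and without replicate 2 (0.0589), with the 90th percentile (0.0596) and with the array median as limit (0.118).

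Btc, which binds Egfr and Erbb4, gave 1262, 1323 and 1075 by 1435541_at, all 3 arrays above the limit. The readings were 1.31 to 1.69 times the limit and the log2 ratio 0.59 ± 0.14 (SE, n = 3; limma, adjusted p = 0.00571). The other Btc probe set, 1421161_at, read 169.5, 259.2 and 304.4, under the limit on every array (log2 ratio -1.77 ± 0.37; limma, adjusted p = 0.00365). With the 99th percentile as limit the log2 ratios of 1435541_at and of Tgfa 1450421_at were 0.09 and 0.16, and neither passed (limma, adjusted p = 0.609 and 0.338).

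Egf, the transcript of the factor that was added to the medium, read 679.5, 297.4 and 484.6 by 1418093_a_at. No array reached its limit, with values from 0.38 to 0.83 of it and replicate 1 the highest. The log2 ratio was -0.81 ± 0.29 (SE, n = 3; limma, adjusted p = 0.0338). That call was lost without replicate 2 (limma, adjusted p = 0.137), without replicate 3 (0.0803), with the 90th percentile as limit (0.122), with the array median as limit (0.303) and with no intensity trend (0.0557). The array reads RNA of the cells, so it does not measure the added protein.

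**Figure D2:**
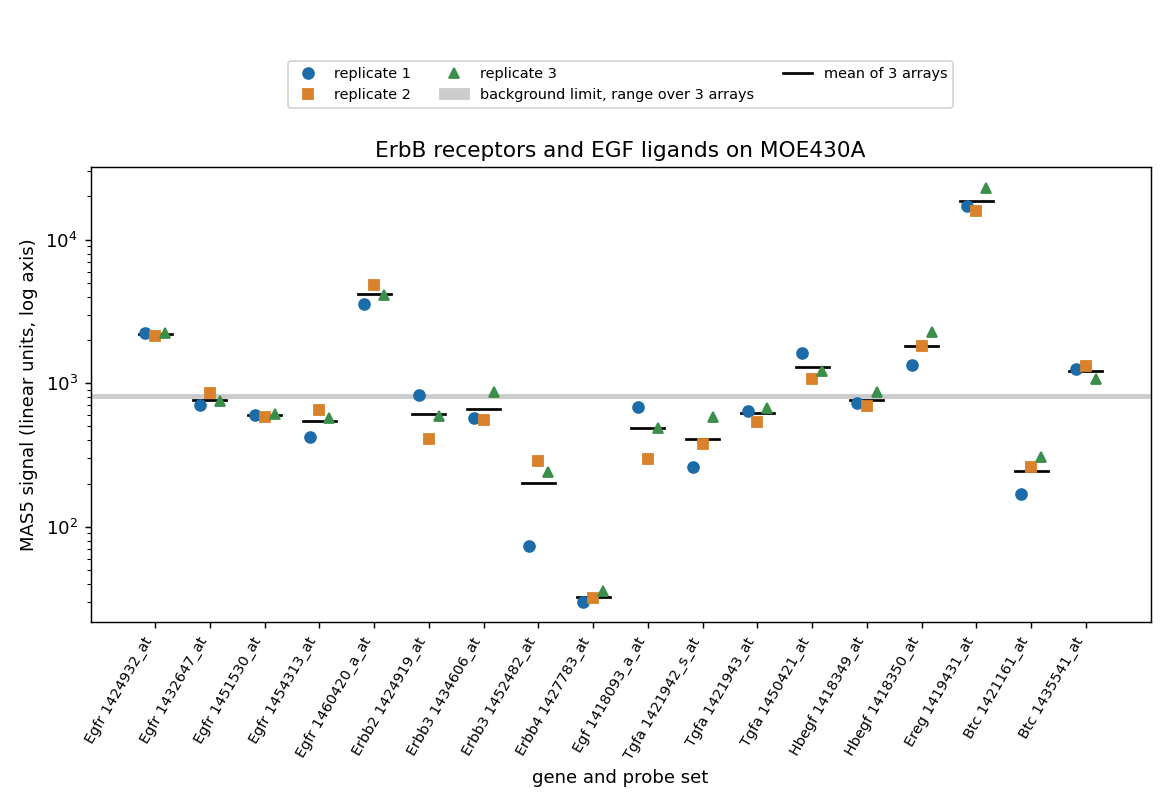
MAS5 signal (linear units on a log axis) of the 18 member probe sets on MOE430A, with 1 point per replicate, a bar at the mean of 3 arrays and a grey band for the range of the background limit. Ereg lies over the band, at 15719 to 22872, and Erbb4 under it, at 30.1 to 35.5.

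The spread between arrays differed among the members. The coefficient of variation of the 7 member probe sets above the limit ran from 2.43% to 30.2%, with a median of 20.3%. For the 6 of them on MOE430A the median was 17.6%. Over all probe sets above the limit it had a median of 13.0% on MOE430A and 15.6% on MOE430B. The 13 others ran from 1.72% to 56.4%. No replicate was the highest for all: of the 20 probe sets, 5 were highest in replicate 1, 5 in replicate 2 and 10 in replicate 3. Signals of control probe sets at the 3' end of Gapdh exceeded those at its 5' end by 11.9 to 16.5 times on the 6 arrays. For actin the excess was 8.55 to 11.4 times on MOE430A and 9.53 to 13.4 times on MOE430B. The part of this 3' excess in the low probe sets was not tested.

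The other genes of the pathway were taken from 7 lists of 68 genes, of which 61 were measured. Above the limit were 43 of these, or 70.5%, against 36.2% of all genes, with a median log2 ratio of 1.39 against -0.42. Neither contrast was matched for the chip or for the number of probe sets per gene. With MOE430A alone 34 of 53 pathway genes were above the limit, against 42.7% of all genes. A single probe set sufficed for a call, and the highest gave the ratio. Over all genes the share climbed from 22.1% in the group read by fewest probe sets to 59.2% in the group read by most. Several probe sets read 29 of the 43 genes above the limit, and the part of this in the contrasts was not tested. Of the 43 genes, 40 were also called higher by limma, and 17 were above the limit by 1 of several probe sets. Of the further ErbB ligands, the neuregulins and epigen (Epgn), 0 of 5 were above it. Nrg2 read 3184, 3015 and 3517 on MOE430B, above the limit on 2 of 3 arrays (log2 ratio 0.16 ± 0.22, SE, n = 3; limma, adjusted p = 0.504). By their highest probe sets Nrg1 read 477 ± 214 on MOE430B, and Nrg3 82.8 ± 60.3, Nrg4 426 ± 164 and Epgn 335 ± 246 on MOE430A (SD, n = 3).

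Of the genes for ligand release and membrane partners, 6 of 8 were above the limit. Adam17 (TACE), the main sheddase of Tgfa, Hbegf and Ereg, gave 4175 ± 189 and Adam10, which releases Egf and Btc, gave 5177 ± 381 (SD, n = 3). The call for Adam10 rests on 1 of 4 probe sets, and the other 3 were lower than the limit (log2 ratios -2.29, -1.32 and -2.75; limma, adjusted p = 0.00148, 0.00833 and 0.00271). Adam9 gave 11671 ± 364, while Adam12 was above the limit on 2 of 3 arrays at 609 ± 391. Adaptors and docking proteins were above for 5 of 9. Among them Grb2, which links the receptors to Sos, gave 1768 ± 137 and Shc1 3197 ± 689, each by 1 of 2 probe sets. The other Shc1 probe set was lower than the limit (log2 ratio -1.42, limma, adjusted p = 0.00592). The Ras activators Sos1, at 2970 ± 629 on MOE430B, and Sos2, at 598 ± 123, did not pass on all arrays.

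In the Ras and MAP kinase cascade 4 of the 5 measured genes were above the limit. Nras gave 2008 ± 326 and the kinase Map2k1 7515 ± 2121 (SD, n = 3), and Braf was above the limit on MOE430B at 5646 ± 1736, by 1 of 9 probe sets. Araf was above it on MOE430B at 3982 ± 1316, by 1 of 5 probe sets, one of shared sequence, and did not pass (log2 ratio 0.41; limma, adjusted p = 0.097). Map2k2 read 1219, 1433 and 385, above the limit on 2 of 3 arrays. The 5 other listed genes were not analysed here. For PI3 kinase and Akt 7 of 8 were above. The catalytic subunit Pik3ca gave 1412 ± 266, by 1 of 6 probe sets. The regulatory subunit Pik3r1 gave 15861 ± 1217 on MOE430B, by 1 of 4 probe sets. Its MOE430A probe sets were lower than the limit (log2 ratios -1.25, -1.24 and -1.62, limma, adjusted p = 0.00652, 0.00852 and 0.00384). Pik3cb, at 259 ± 184 on MOE430B, was under the limit. Pik3r2 gave 1680 ± 498 on MOE430A.

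Inhibitors of ErbB signalling and genes of receptor turnover were above the limit for 11 of 13. Errfi1 (Mig6), which binds and blocks the ErbB kinase domain, gave 53422, 53810 and 55974, at 65.3 to 68.7 times the limit on all 3 arrays. Lrig1, a membrane protein that promotes receptor degradation, gave 11635 ± 953 and Spred1, which restrains Ras signalling, 15325 ± 1182 (SD, n = 3). Of the ubiquitin ligases, Cblb was above the limit on MOE430B at 10897 ± 1825. Cbl was above it there at 3523 ± 587 by 1 of 3 probe sets, which did not pass (log2 ratio 0.27; limma, adjusted p = 0.233), and another of the 3 was lower than the limit (log2 ratio -0.93, adjusted p = 0.0134). Socs5 gave 7321 ± 276, and Socs4, on MOE430B, 4765 ± 777. The Sprouty genes Spry1, at 1875 ± 239, and Spry2, at 3727 ± 493 by 1 of 2 probe sets, were above the limit. Spred2 gave 2477 ± 435, by 1 of 5 probe sets. Spry4 was above it on MOE430B at 3966 ± 567, by 1 of 4 probe sets, and did not pass (log2 ratio 0.45; limma, adjusted p = 0.0549). Rnf41 (Nrdp1), a ligase that acts on Erbb3, at 917 ± 301, and Lrig3, at 1982 ± 897 on MOE430B, did not pass on all arrays.

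Transcription targets of EGF signalling were above the limit for 10 of 13. The transcription factors Egr1, Fos and Fosl1 gave 18776 ± 1367, 13162 ± 2010 and 2367 ± 298, and Junb 2118 ± 164 (SD, n = 3). Fosl1 was above the limit by 1 of 2 probe sets, and the other was lower than it (log2 ratio -3.39, limma, adjusted p = 0.000715). Dusp5, Etv4 and Etv5 were the 3 not above it. These genes answer to other growth factors too, and with EGF in all samples their signals cannot be assigned to it.

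**Figure D3:**
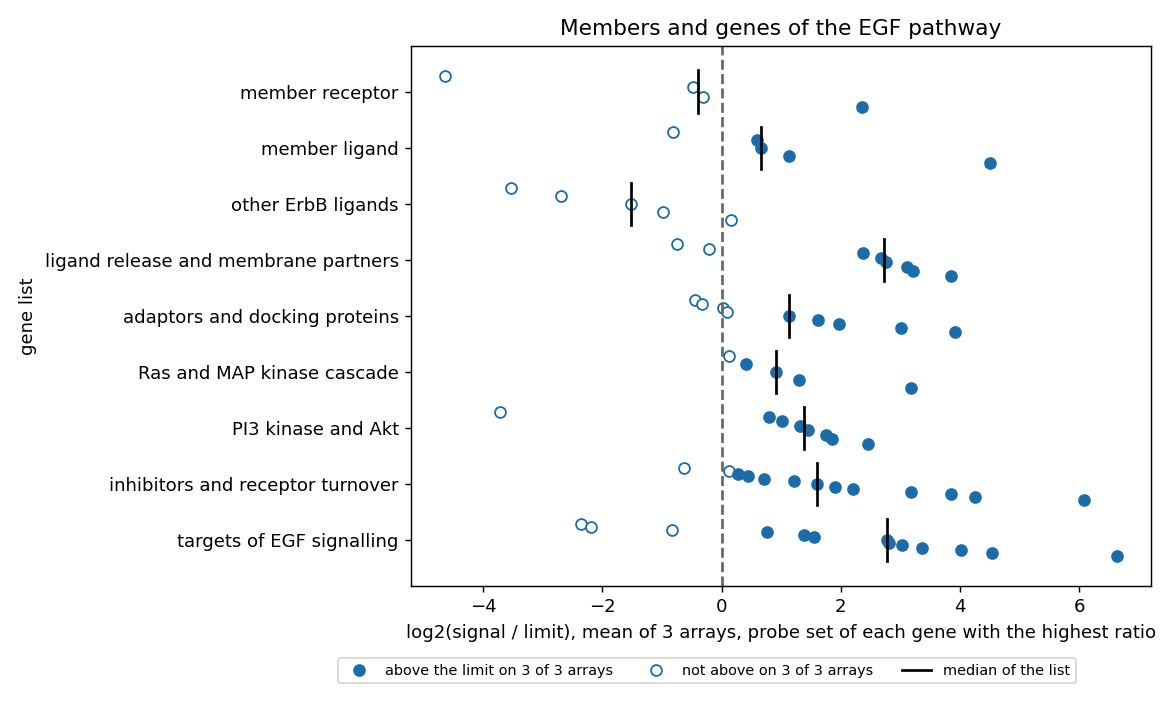
Log2 ratio of signal to the background limit (mean of 3 arrays, each gene's probe set with the highest ratio) for member genes and the 7 pathway lists, with filled points for genes above the limit on all 3 arrays and a bar at each list's median. The medians run from -1.52 for the other ErbB ligands to 2.77 for the targets of EGF signalling.

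Markers of the cell types found in muscle were read the same way. Markers of mesenchymal progenitors were above the limit for 6 of 6, with Pdgfra at 12733 ± 791, Dcn at 148494 ± 7522, Col1a2 at 62928 ± 4545 and Cd34 at 10749 ± 740.4 (SD, n = 3). Markers of myogenic cells were above it for 0 of 5. Among them Pax7 gave 304 ± 11.9, Myf5 76.8 ± 32.4, Myod1 914 ± 267 and Des 604 ± 270. The satellite cell markers Pax7 and Myf5 were thus under the limit in these cells, which were enriched from muscle with the Sca1 antigen. By their highest probe sets Myod1 and Myog, the latter at 730, 1332 and 1468, were above it on 2 of 3 arrays. Neither passed (log2 ratios 0.13 and 0.48, limma, adjusted p = 0.56 and 0.0707).

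Epithelial cells and Schwann cells are known for ErbB expression. Epithelial markers were above the limit for 2 of 6. Cdh1, at 151 ± 59.1, Krt5, at 91.2 ± 2.55, and Krt14, at 514 ± 79.5 (SD, n = 3), were under it on every array. Krt8 was above it by 1420647_a_at, at 883, 806 and 1013, or 1.03 to 1.23 times the limit, and did not pass (log2 ratio 0.15; limma, adjusted p = 0.386), while its other 2 probe sets were lower than the limit. Epcam was above it only by 1447899_x_at on MOE430B, a probe set of shared sequence that read 47832, 18602 and 8560, while its MOE430A probe set was lower than the limit (log2 ratio -3.58 ± 0.47, SE; limma, adjusted p = 0.000312). Of the Schwann cell markers measured 1 of 4 was above, Sox10 at 1413 ± 429 by 1 of 3 probe sets, and S100b, Mbp and Ngfr were not. Macrophage markers were above it for 3 of 5, with Csf1r at 2925 ± 555.0, Adgre1 at 1431 ± 145 and Cd14 at 4543 ± 578, while Ptprc, at 628 ± 220, and Cd68, at 792 ± 68.7, were not. Of the endothelial markers 1 of 4 was above, Kdr at 1841 ± 326, and Pecam1, Cdh5 and Tek were not. By 1433956_at Cdh5 was above the limit on 2 of 3 arrays and did not pass (log2 ratio 0.15, limma, adjusted p = 0.457). In bulk RNA fewer cells of a type and less RNA per cell cannot be told apart, and which cells carried the member transcripts was not tested.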

How the data were processed

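The deposited values were MAS5 signal intensity per probe set on a linear scale, made by the authors with MAS5 per the submitters' processing notes, with the version and scaling target not given in the sources used here. Each chip was scaled separately, and the chips were not compared. Probe sets were named from the platform annotation where it gave 1 gene (20393 on MOE430A, 14674 on MOE430B), with symbols updated through Entrez numbers in RefSeq for GRCm38.p6. Chip lots came from the deposited experiment files. A background limit and a count of genes above it were computed as described above. Log2 ratios to the limit were tested with limma 3.58.1 in R 4.3.3 (two-sided, intensity trend, Benjamini-Hochberg over the chip), and replicates with a moderated F-test. Both steps were tested on simulated data. Python 3.11.15, numpy 2.4.6, pandas 2.3.3 and matplotlib 3.10.9 did the rest. Between replicates the correlation was 0.916 to 0.922 for MOE430A, and for MOE430B 0.749 to 0.773 (log2 signal, across probe sets, which are not independent replicates). Having 3 arrays per chip limits the precision.

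The members and lists were chosen with earlier results of these data known. Named were all members with every probe set, the first 4 measured genes of each pathway and marker list, and all further ligands and inhibitors. Other genes were named after their values were seen. The alternatives changed the limit, its reference genes, the probe sets, arrays and chips used, the normalization, the pseudocount (50) and the variance model.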

Additional observations from a re-analysis of the deposited data

How the results depend on the processing

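The count of members above the limit was 5 of 9 under 9 of the 11 alternatives, including each omission of a replicate. It was 5 of 8 without probe sets of shared sequence, where Egf had none left, and 3 of 9 with the 99th percentile as limit. The count of pathway genes above it ran from 34 of 53 with MOE430A alone to 49 of 61 with the array median as limit. Of all genes 42.7% and 53.8% were above the limit under these settings. Without probe sets of shared sequence the share of all genes was 30.5%, and with the 99th percentile 27.1%. The number of member probe sets that limma called higher than the limit was 7 of 20, and 5 with the 99th percentile. The number called lower was 6, and changed to 13 with the 99th percentile and to 3 with the array median as limit, which moves the limit itself. With the main limit, limma called 32.9% of all MOE430A probe sets higher and 47% lower, and on MOE430B 11.9% and 68.3%. Such shares are not given for the other limits. No member probe set that passed changed direction under any of the 10 alternatives run for it. Egfr passed between replicates under 0 of 7 alternatives (limma; unadjusted p under 0.05 also in 0). No paired analysis was possible because the 2 groups are different chips that share no member probe set, so no difference between chips could be tested. The replicate numbers served to join the readings of Egfr on both chips in the test between replicates. Signal over background limits the readings of Erbb2 by 1424919_at and of Erbb3 by 1434606_at, which lay about the limit.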
